A study of Mus musculus with 10 samples.

Results

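The mRNAs of 7 genes named as protamines, transition proteins or spermatid linker histones were followed through mouse sperm and testes. These are the protamines Prm1 and Prm2 and their cytoplasmic relative Prm3, the transition proteins Tnp1 and Tnp2, and the linker histones H1fnt and Hils1. They were chosen by name, as the known mRNAs (RefSeq NM_ transcripts) that the tables assign to these symbols. The rule used no measured levels, but the set was chosen with earlier results of these data known. The set holds 7 genes of the 16082 with a known mRNA in at least 1 of 10 samples, and each was read from 1 transcript.

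In the nucleus of the elongating spermatid, most histones are removed and replaced first by transition proteins and then by protamines, small arginine-rich proteins that pack the DNA into the dense sperm head. The protamine and transition protein genes are transcribed in round spermatids, and their mRNAs are stored bound to protein and translated days later, when transcription has stopped. Some of these mRNAs are still present in mature sperm, where Prm1 and Prm2 are commonly used as sperm-positive markers.

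Male C57BL/6 mice of 3 to 5 months received a single intraperitoneal injection of CdCl2 at 3 mg per kg body weight or of saline, with 50 mice in each arm, and were killed on day 35, as the labels give it. The study's methods differ from these labels, with another number and age range for the control mice and the substrain name C57BL/6J. RNA was sequenced from 4 control sperm, 2 control testes, 2 cadmium sperm and 2 cadmium testes samples. The study's methods describe control sperm as pools of several mice that swam out of the vas deferens and cauda epididymis and were treated with a somatic cell lysis buffer, and testes as whole tissue, which mixes all germ cell stages with Sertoli, Leydig and other somatic cells. The study found sperm RNA shifted to small sizes, without the ribosomal RNA peaks of testes RNA, and describes it as mainly fragmented. This difference goes with tissue, and its part in the levels and ratios of sperm against testes was not tested. Sample labels say nothing of separate pools in the cadmium arm, so p-values measure the spread between these samples, some of which may be technical.

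Library totals ran from 366455 to 1058017 expected counts in control sperm, 1155491 to 1254477 in cadmium sperm and 2606086 to 2866856 in testes, so low levels were less well resolved in control sperm than elsewhere. Control sperm 1, which the study set aside for its low correlation with the other pools, is printed below but enters no comparison other than the alternatives that add it. Of the 6 spermatocyte markers, all 6 were at 0 in control sperm 2 to 4, and their summed FPKM (fragments per kilobase of transcript, scaled to the mapped reads of a library) ran from 0 to 3.18 in cadmium sperm and from 2.63 to 7.36 in testes. The 6 round spermatid markers summed to 0 to 6.17 FPKM in control sperm 2 to 4, 6.32 to 7.82 in cadmium sperm and 25.2 to 43.8 in testes, with Spaca1, Tex21 and Izumo1 at 0 in all of these sperm samples. Epithelial markers (5 genes) summed to 5.76 to 12.97 FPKM in control sperm 2 to 4, 7.95 to 7.97 in cadmium sperm, 5.96 to 9.08 in control testes and 6.28 to 6.49 in cadmium testes, with Cdh1 at 0 in all but the cadmium sperm, and their part in the results was not tested. Leydig markers (5 genes) summed to 2.96 to 27.5 FPKM in control sperm 2 to 4, 3.47 to 6.90 in cadmium sperm and 15.6 to 22.2 in testes. The 27.5 of control sperm 3 was Star alone, with Cyp11a1, Hsd3b1 and Insl3 at 0 in control sperm. Epididymal markers (7 genes) summed to 0 to 2.85 FPKM in control sperm 2 to 4 and 2.50 to 2.54 in cadmium sperm. In testes they summed to 1.85 to 4.38 (control) and 0.260 to 11.02 (cadmium). Crisp1 was at 0 in control sperm and at 2.50 and 2.31 FPKM in cadmium sperm. Lcn5 and Adam7 read 3.99 and 3.55 FPKM in cadmium testes 2 and 0 in cadmium testes 1. The part of these markers was not tested.

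Of the 7 genes, 4 lie head to tail on the minus strand of chromosome 16 within 8889 bases (GRCm38.p6), in the order Prm1, Prm2, Prm3 and Tnp2 in the direction of transcription. Prm1 spans chr16:10796332-10796823, Prm2 chr16:10791377-10792105, Prm3 chr16:10790508-10790914 and Tnp2 chr16:10787935-10788655. The nearest other coding genes are Socs1, a cytokine signalling inhibitor 2399 bases beyond Tnp2, and Rmi2, a subunit of a DNA repair complex 38236 bases before Prm1. Tnp1 lies on chromosome 1 (chr1:73015074-73015899, minus strand), H1fnt, which RefSeq lists as H1f7, on chromosome 15 (chr15:98255982-98257307, minus strand), and Hils1 on chromosome 11 (chr11:94967593-94968456, plus strand).

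The 120 bases before the start of the clustered genes and of Tnp1 are shown because neighbours in the cluster differed in level, and because spermatid promoters of this kind are known to be bound by the activator CREM at cyclic AMP response elements. All are RefSeq sequence of GRCm38.p6, read 5′ to 3′ on the minus strand. Capitals mark TGANNTCA (the element with any middle bases) or, in Prm2, TATAAA read on the opposite strand.
Prm1, chr16:10796824-10796943: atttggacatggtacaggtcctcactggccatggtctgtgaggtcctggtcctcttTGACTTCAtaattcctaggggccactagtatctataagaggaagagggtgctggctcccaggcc
Prm2, chr16:10792106-10792225: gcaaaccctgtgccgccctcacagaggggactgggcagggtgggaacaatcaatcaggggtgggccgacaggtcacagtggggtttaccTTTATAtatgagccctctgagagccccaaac
Prm3, chr16:10790915-10791034: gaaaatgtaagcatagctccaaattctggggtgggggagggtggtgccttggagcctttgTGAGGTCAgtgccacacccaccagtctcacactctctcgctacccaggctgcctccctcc
Tnp2, chr16:10788656-10788775: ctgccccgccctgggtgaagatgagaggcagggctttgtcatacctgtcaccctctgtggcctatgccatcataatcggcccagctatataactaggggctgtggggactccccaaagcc
Tnp1, chr1:73015900-73016019: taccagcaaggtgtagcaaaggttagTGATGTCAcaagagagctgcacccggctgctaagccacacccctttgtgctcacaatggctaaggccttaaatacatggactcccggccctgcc

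The full element TGACGTCA was in none of the 7 promoters over 250 bases before the start, searched on both strands, and in 1.55% of 32851 promoters. TGANNTCA, searched after the promoters had been seen, lay at positions -64 to -57 in Prm1, -60 to -53 in Prm3 and -94 to -87 in Tnp1, and in 11.9% of all promoters. It includes the full element. The short element TGACG was found in H1fnt alone of the 7 (17.8% of all promoters), TATAAA in Prm2 alone (12.4%), and CCAAT in Prm3 and Hils1 (33.8%). A match is a description of the letters and not of a bound site.

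Prm2, the protamine that is made as a longer precursor and trimmed, was the most abundant member in all 10 samples. Its FPKM was 184, 239, 233 and 438 in control sperm 1 to 4 and 353 and 397 in cadmium sperm. Testes read 281 and 147 in the control group and 248 and 169 in the cadmium group. Sperm and testes overlapped, since 1 control testes sample lay above control sperm 2 and 3. Among all known mRNAs of a sample, Prm2 ranked between 9 and 21 in every sperm sample and between 12 and 41 in every testes sample.

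Prm1, the protamine that needs no precursor, was read at far lower levels in sperm than in testes. Testes samples were at 122 and 128 FPKM (control) and 118 and 136 FPKM (cadmium), with rank 41 to 46 among known mRNAs. Control sperm 1 to 4 read 40.1, 5.24, 0 and 10.97 FPKM, from 6, 2, 0 and 2 expected counts, and cadmium sperm read 24.0 and 20.0 FPKM from 10 and 9 expected counts. Every sperm sample, control sperm 1 included, lay below every testes sample, and the best rank of Prm1 in the 5 sperm samples compared was 284. By PCR, the study reported Prm1 and Prm2 as readily detected in RNA of its purified sperm. That result concerns presence, and no level against testes was given with it.

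Prm3, a cytoplasmic relative of the protamines encoded within the cluster, was low and uneven. Testes read 27.6 and 23.7 FPKM without cadmium and 21.6 and 18.7 with it, and cadmium sperm read 25.9 and 30.5. Control sperm 1 to 4 read 0, 10.3, 138 and 10.8 FPKM, and the value of 138 in control sperm 3 came from 18 expected counts in the smallest library. Sperm and testes overlapped.

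Tnp1, the smaller transition protein, was at 90.3 and 88.1 FPKM in the testes of control mice, and cadmium testes read 107 and 140 FPKM. In control sperm it was listed at 0 in samples 1, 3 and 4 and at 4.89 FPKM in sample 2, from 2 expected counts. Cadmium sperm read 4.47 and 6.21 FPKM from 2 and 3 counts. No sperm sample came near the testes samples.

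Tnp2, the zinc-binding transition protein of the cluster, read 65.9 and 97.7 FPKM in control testes, while cadmium testes read 71.4 and 121 FPKM. Control sperm 1 to 4 read 14.1, 33.3, 0 and 15.4 FPKM and cadmium sperm read 23.7 and 15.7. The highest sperm value was below the lowest testes value, and Tnp2 read higher than Tnp1 in each sperm sample that listed either gene, though in control sperm 1 and 4 this was 3 and 4 counts against 0.

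H1fnt, a spermatid linker histone needed for nuclear shaping, read 16.9 and 14.7 FPKM in control testes, with 13.2 and 11.8 in the cadmium group. In control sperm 1 to 4 it read 0, 3.66, 6.41 and 0 FPKM, and in cadmium sperm 3.35 and 4.94. The groups did not overlap between sperm and testes.

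Hils1, the linker-histone-like protein of elongating spermatids, was the lowest member in testes, at 10.2 and 6.13 FPKM (control) and 6.45 and 5.89 FPKM (cadmium). It was listed at 0 in all 4 control sperm samples and in cadmium sperm 1, and at 0.970 FPKM in cadmium sperm 2, from 1 expected count. Its absence from the tables of control sperm is limited by depth, since 3 counts over control sperm 2 to 4 correspond to 1.55 CPM (counts scaled to the library total), against 6.76 CPM in control testes.

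**Figure D1:**
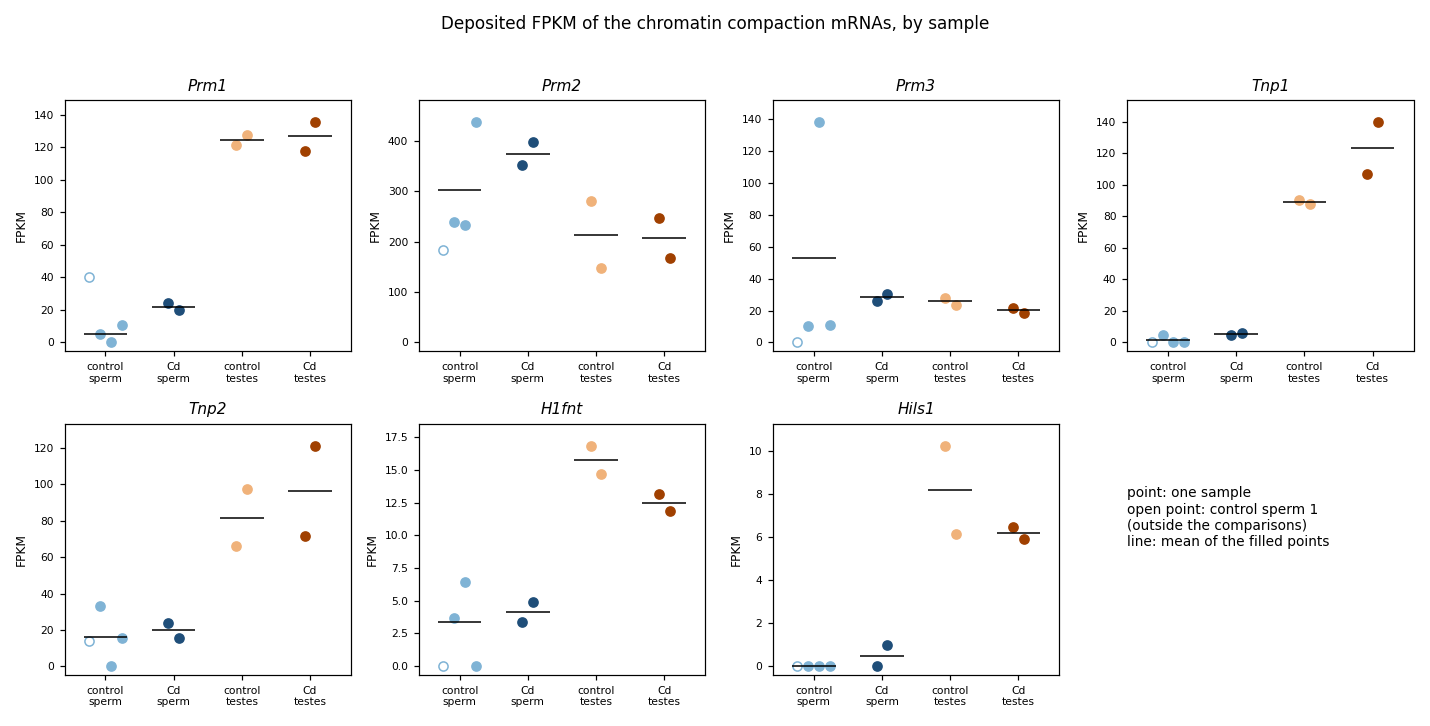
FPKM of the 7 genes (vertical axes, linear, one scale per gene) in each sample of the 4 groups, with lines at the means of the filled points and open points for control sperm 1. Prm1, Tnp1, Tnp2, H1fnt and Hils1 lie lower in every sperm sample than in every testes sample, while Prm2 and Prm3 overlap.

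In testes the order of levels per length was Prm2, Prm1, Tnp1, Tnp2, Prm3, H1fnt and Hils1 by the mean of 4 samples: 211 ± 63.4, 126 ± 7.70, 106 ± 24.0, 89.1 ± 25.6, 22.9 ± 3.76, 14.1 ± 2.16 and 7.18 ± 2.05 FPKM (SD, n = 4). The ranges of Prm1, Tnp1 and Tnp2 overlapped one another, and those of the remaining neighbours did not. In the 5 sperm samples compared, the means were 332 ± 92.7 FPKM for Prm2, 43.1 ± 53.8 for Prm3, 17.6 ± 12.3 for Tnp2, 12.04 ± 9.98 for Prm1, 3.67 ± 2.38 for H1fnt, 3.11 ± 2.91 for Tnp1 and 0.194 ± 0.434 for Hils1 (SD, n = 5). Only Prm2 was clear of its neighbour in that order, as the ranges of the other neighbours overlapped.

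Together the 7 genes held 0.946 ± 0.165% of the summed FPKM of known mRNAs in the 5 sperm samples and 1.25 ± 0.146% in the 4 testes samples (SD). Prm2 made up most of the sperm share.

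Sperm was compared with testes in control mice with the quasi-likelihood test of edgeR on rounded expected counts, with Benjamini-Hochberg adjustment over 24432 genes. A gene was called at an adjusted p under 0.05 and more than 2-fold change. Prm1, Tnp1 and Hils1 were called lower in sperm, 3 of 7 members, beside 17.7% of all genes tested that were called lower and 4.17% called higher. All genes here include non-coding and predicted transcripts. In a fit of known mRNAs only, 3 members were lower, beside 1047 of 4910 genes lower and 167 higher. A bulk sample cannot tell fewer cells of a type from less RNA per cell, and testes hold the spermatids in which these genes are transcribed.

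Prm1 was lower in control sperm by a log2 fold change of -4.55 ± 1.32 (SE; edgeR adjusted p = 0.0162). On pooled CPM, testes exceeded sperm 21.1-fold (95% exact counting interval 8.13 to 78.1), from 4 counts in control sperm 2 to 4 and 239 in testes. These intervals cover counting error only and not the spread between pools.

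Tnp1 showed the largest drop that could be sized, with a log2 fold change of -5.21 ± 1.52 (SE; edgeR adjusted p = 0.0172) and a pooled ratio of 32.5 (95% exact counting interval 8.87 to 270) that rests on 2 counts in sperm. Hils1 (edgeR adjusted p = 0.0472) had 0 counts in control sperm 2 to 4 and 37 in control testes. Its 95% exact counting interval began at 3.37-fold lower in sperm and had no upper limit. A floor of 3 counts over the 3 sperm samples gave 4.36-fold.

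Tnp2 (log2 fold change -2.31 ± 1.13, edgeR adjusted p = 0.134) and H1fnt (-2.47 ± 1.42, adjusted p = 0.203) did not pass. Prm2 (0.34 ± 0.67, adjusted p = 0.746) and Prm3 (0.57 ± 1.37, adjusted p = 0.803) were not called either, while the median of all genes tested was -1.24, or -0.77 with genes at 0 in a tissue set to their bound (a floor of 3 counts). The 95% interval of the Prm2 fold change, -0.97 to 1.65 on the log2 scale, lay above the estimate for Prm1.

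These calls in control mice rested on few samples. Without control sperm 4 no member was called (edgeR adjusted p = 0.0804 for Prm1 and 0.140 for Tnp1), nor without control testes 1 (0.176 and 0.246) or control testes 2 (0.398 and 0.403). Hils1 also lost its call without control sperm 2 (edgeR adjusted p = 0.0654) or 3 (0.0608), and with no filter on low values none of the 3 was called. On log2(FPKM + 0.1), limma gave adjusted p = 0.142 for Prm1 and 0.0636 for Tnp1.

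The same contrast within the cadmium arm used other samples of both tissues. Prm1, Tnp1 and Tnp2 were called lower in sperm, 3 of 7 members, beside 15.4% of 25780 genes called lower and 16.2% called higher. That balance over all genes was 3982 lower and 4172 higher, and it turned to 4968 and 2822 with limma on log2(FPKM + 1), 4057 and 2210 with limma on log2(FPKM + 0.1), and 3536 and 3082 with library totals in place of TMM scaling. Log2 fold changes were -2.28 ± 0.62 for Prm1 (SE; edgeR adjusted p = 0.00164), -4.25 ± 0.75 for Tnp1 (adjusted p = 3.2e-07) and -2.11 ± 0.60 for Tnp2 (adjusted p = 0.00273). Pooled CPM in testes exceeded those in sperm 5.62-fold for Prm1 (3.52 to 9.49), 22.3-fold for Tnp1 (9.43 to 69.3) and 4.81-fold for Tnp2 (3.16 to 7.64). In a fit of known mRNAs only, 4 members were lower, beside 1203 of 5080 genes lower and 1087 higher.

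Tnp1 remained called in the cadmium arm under all 12 alternatives tried, whereas Prm1 lost its call without cadmium testes 1 (edgeR adjusted p = 0.0744). Tnp2 lost it without cadmium sperm 2 (edgeR adjusted p = 0.0799), cadmium testes 1 (0.0714) or cadmium testes 2 (0.172). Without cadmium testes 1, Tnp1 was the only member called, as it was in 1 model of the 4 groups over 9 samples (edgeR adjusted p = 0.101 for Prm1 and 0.115 for Tnp2).

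Among the uncalled members, Hils1 had a single count in cadmium sperm against 28 in cadmium testes, a ratio of 12.1 with a 95% exact counting interval of 2.01 to 497 (edgeR adjusted p = 0.0574). H1fnt had a log2 fold change of -1.32 ± 0.71 (edgeR adjusted p = 0.145). Prm2 stood at 1.15 ± 0.55 (edgeR adjusted p = 0.0936) and Prm3 at 0.77 ± 0.71 (adjusted p = 0.426), against a median of -0.30 over all genes, or -0.14 with genes at 0 in a tissue set to their bound.

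With the 9 samples of both arms in 1 model and treatment as a term, 5 members were called lower in sperm, beside 19.8% of 32814 genes. The log2 fold changes were -3.21 for Prm1 (edgeR adjusted p = 5.5e-05), -4.57 for Tnp1 (4.3e-07), -2.08 for Tnp2 (0.00522) and -1.78 for H1fnt (0.0484). Hils1, at 1 count over the 5 sperm samples, was called too (edgeR adjusted p = 0.00436), and Prm2 stood at 0.84 (adjusted p = 0.125). The same 5 genes had all 5 sperm samples below all 4 testes samples in FPKM, which held for 25.2% of the genes tested.

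**Figure D2:**
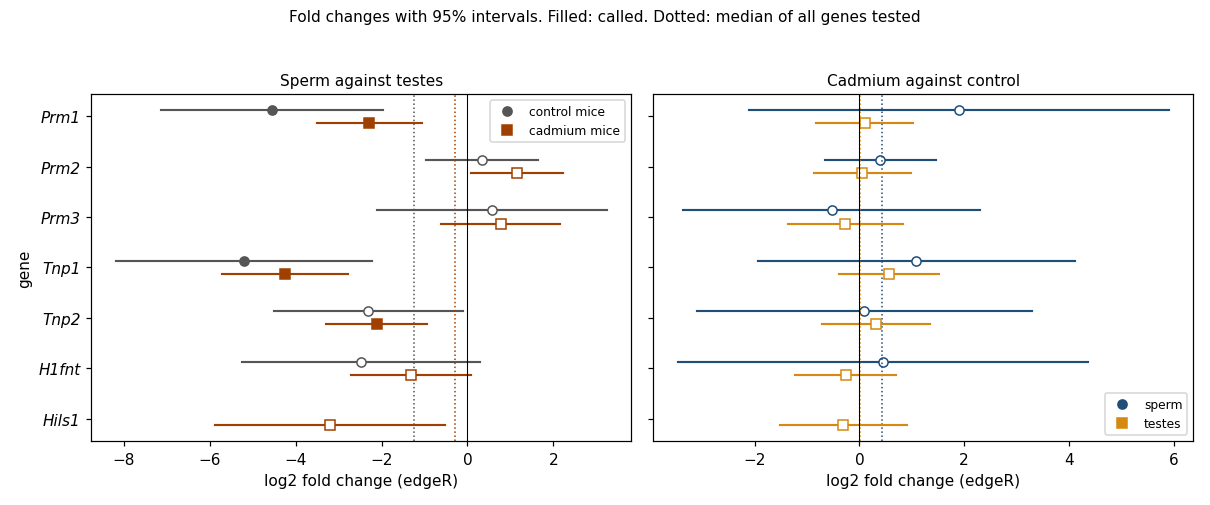
Log2 fold changes of the members with normal 95% intervals (bars), for sperm against testes in control and cadmium mice (left) and for cadmium against control in sperm and testes (right), with filled symbols for called genes and dotted lines at the median of all genes tested. Prm1 and Tnp1 are called in both arms, Prm2 and Prm3 lie to the right of both medians, and no symbol on the right is filled. Hils1 in control mice is left out because its sperm samples were at 0.

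Ratios within a sample were taken as log2 of FPKM + 1, which cancels library scaling only where both values are well above the pseudocount. The ratio of Prm2 to Prm1 was 5.26 and 5.20 in control sperm 2 and 4 and 3.82 and 4.25 in cadmium sperm. The values of control sperm 2 and 4 rest on 2 counts of Prm1 each, which the floor below leaves unchanged. In testes the ratio was 1.20 and 0.20 (control) and 1.06 and 0.31 (cadmium). Control sperm 3 had 49 counts of Prm2 and 0 of Prm1, so its value of 7.87 is set by the pseudocount and is no measured ratio. With Prm1 at a floor of 3 counts, a choice made after seeing the data, it was at least 3.26.

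All 5 sperm values exceeded all 4 testes values in either case. Means were 5.28 ± 1.57 in sperm and 0.70 ± 0.51 in testes (SD, n = 5 and 4), or 4.36 ± 0.87 in sperm with the floor. The difference was 4.59 with the pseudocount alone, 3.66 with the floor and 3.94 without control sperm 3. Its two-sided exact permutation p was 0.00794 with the pseudocount alone or the floor, the smallest that 126 arrangements allow. With the pseudocount alone, the exact permutation p was 0.0794 after Benjamini-Hochberg adjustment over 10 ratio comparisons. Control sperm 1 had a ratio of 2.17, between the groups.

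The log2 ratio of Tnp2 to Tnp1 was 2.54 in control sperm 2 and 2.17 and 1.21 in cadmium sperm, and ran from -0.58 to 0.15 in the 4 testes samples. These sperm values rest on 2, 2 and 3 counts of Tnp1, which the floor leaves unchanged. Control sperm 4 had 4 counts of Tnp2 and 0 of Tnp1, so its value of 4.04 is set by the pseudocount. With Tnp1 at a floor of 3 counts it was at least 0.0082, inside the testes range. Control sperm 3 listed neither gene and has no ratio.

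Sperm averaged 2.49 ± 1.18 and testes -0.27 ± 0.32 (SD, n = 4 each), with a two-sided exact permutation p = 0.0286, adjusted to 0.143 over the 10 comparisons. With the floor the sperm mean was 1.48 ± 1.13, the difference fell from 2.76 to 1.75 and the exact permutation p was 0.0571. Without control sperm 4 the difference was 2.24. Within 1 arm the exact tests cannot fall below 0.1 for 3 samples against 2 or 0.333 for 2 against 2, and all such values stayed at or above those limits.

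The log2 ratio of Prm1 and Prm2 together to Tnp1 and Tnp2 together ran from 2.65 to 4.77 in control sperm 2 and 4 and cadmium sperm, and from 0.22 to 1.36 in testes. In control sperm 3, with both transition proteins at 0, it was at least 3.36 at a floor of 3 counts. With that floor the mean was 3.73 ± 0.81 over 5 sperm samples, against 0.79 ± 0.50 over 4 testes samples (SD).

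**Figure D3:**
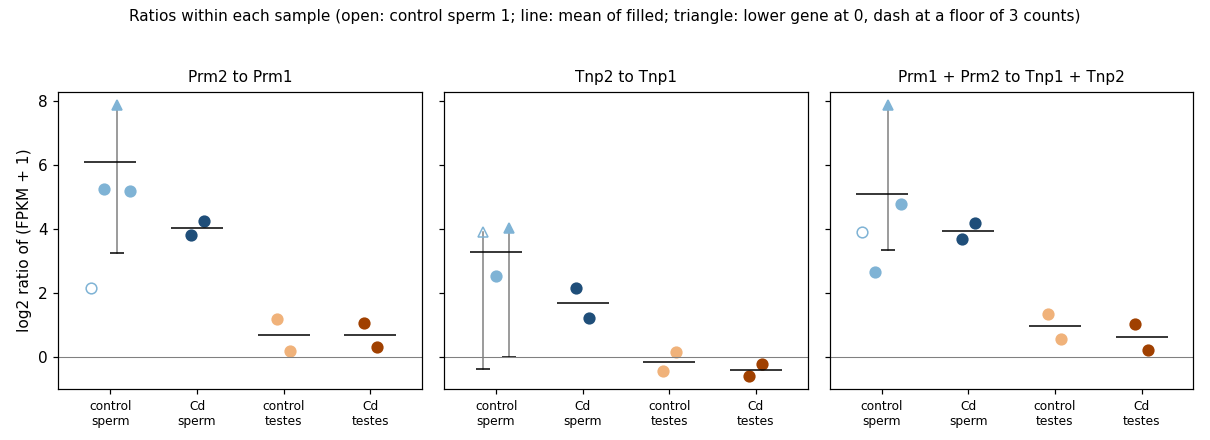
Log2 ratios of FPKM + 1 within each sample (vertical axis) for Prm2 to Prm1, Tnp2 to Tnp1, and Prm1 plus Prm2 to Tnp1 plus Tnp2, by group, with means of the filled points as lines and control sperm 1 open. Triangles mark samples with the lower gene at 0, whose height is set by the pseudocount, and dashes below them the value at a floor of 3 counts. Filled sperm points lie above all testes points, but the dash of control sperm 4 for Tnp2 to Tnp1 falls among the testes points.

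Within the cluster, Prm2 and Prm3 were thus present in sperm at levels that overlapped testes, while Prm1 before them and Tnp2 behind them were lower in sperm. Socs1, next to Tnp2, read 5.07, 0 and 1.66 FPKM in control sperm 2 to 4, 14.6 and 13.5 in cadmium sperm and 3.14 to 3.53 in testes. Rmi2, on the Prm1 side, was at or below 0.340 FPKM in every sample.

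**Figure D4:**
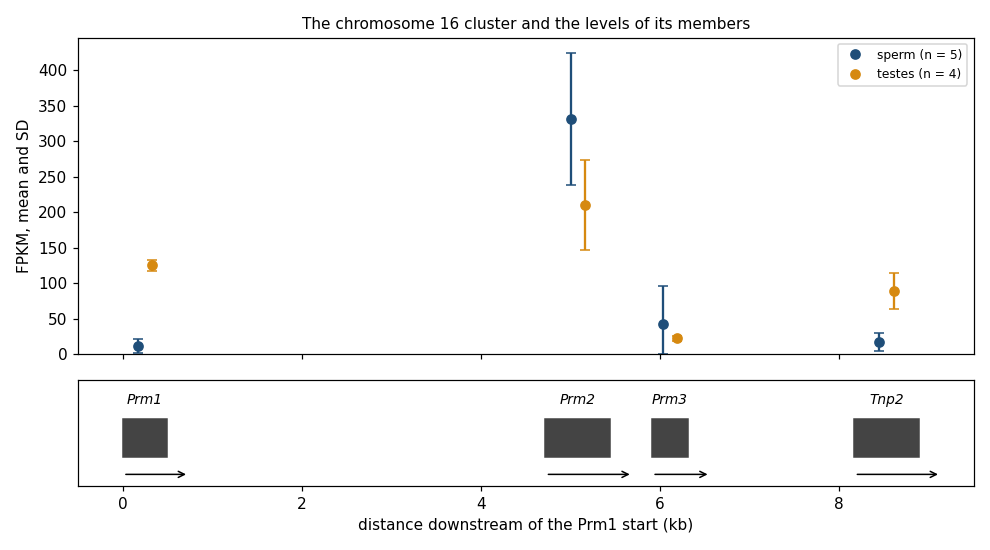
Mean FPKM with SD (upper panel; bars cut at 0) of the 4 clustered genes in 5 sperm and 4 testes samples, placed above their gene bodies by distance in kb downstream of the Prm1 start (lower panel, arrows in the direction of transcription). Prm2 lies higher in sperm on average and Prm1 and Tnp2 lower.

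Cadmium was compared with control within each tissue, and these comparisons share their control samples with the tissue contrast above. In testes, 0 of 7 members were called, beside 0.0225% of 26724 genes called. Without a replicate block, 0 had an unadjusted p under 0.05 by edgeR, DESeq2 or limma. Tnp1 had the largest log2 fold change, 0.56 ± 0.48 (SE; 95% interval -0.39 to 1.51; edgeR adjusted p = 1.00), with both cadmium testes samples above both controls. The interval was -0.84 to 1.03 for Prm1, -0.87 to 0.98 for Prm2 and -0.72 to 1.34 for Tnp2. In this fit without a replicate block, that leaves room for changes near 2-fold. With the block, Tnp1 stood at 0.53 ± 0.22 (SE; edgeR unadjusted p = 0.0170, adjusted p = 0.928) and Prm2 at 0.07 ± 0.18.

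H1fnt (-0.26, 95% interval -1.23 to 0.70), Prm3 (-0.27, -1.37 to 0.83) and Hils1 (-0.31, -1.51 to 0.90) were at small negative log2 values in cadmium testes. Both cadmium samples lay below both controls for H1fnt and Prm3. For Hils1 the groups overlapped.

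In sperm, 6 members could be tested, since Hils1 did not reach 1 FPKM in any sperm sample. None was called and 0 had an unadjusted p under 0.05 by edgeR, DESeq2 or limma, beside 0.0824% of 20640 genes called. Prm1 had the largest log2 fold change, 1.90 ± 2.04 (SE; 95% interval -2.10 to 5.91; edgeR adjusted p = 1.00), and both cadmium samples lay above control sperm 2 to 4. Control sperm 1, at 40.1 FPKM, was above both cadmium samples.

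The remaining log2 fold changes in sperm were 1.09 ± 1.54 for Tnp1, 0.39 ± 0.54 for Prm2, 0.09 ± 1.63 for Tnp2 and -0.53 ± 1.45 for Prm3 (SE), and 0.45 for H1fnt with a 95% interval of -3.47 to 4.36. The median of all genes tested in this comparison was 0.43, near the values of Prm2 and H1fnt. Both cadmium samples of Tnp1 read 4.47 and 6.21 FPKM against a control range of 0 to 4.89. The value of Prm3 turned on control sperm 3, without which it was 1.29. Leukocyte markers summed to 4.85 to 13.8 FPKM in cadmium sperm and 0 to 4.69 in control sperm 2 to 4, with 1 and 4 of the 6 markers at 0 in every sample of the group, and their part in these values was not tested. Cd52 made up most of the highest sum of either group, at 12.07 FPKM in cadmium sperm 2 and 4.07 in control sperm 2. It was at 0 in cadmium sperm 1 and control sperm 3 and 4. Spermatogonia markers (6 genes) summed to 9.67 to 14.9 FPKM in cadmium sperm and 3.12 to 6.46 in control sperm 2 to 4, with Kit, Stra8 and Dmrt1 at 0 in both, and to 15.1 in control sperm 1. Sohlh1 read 14.5 and 8.28 FPKM in cadmium sperm, 6.03, 0 and 0 in control sperm 2 to 4, and 0.560 to 1.49 in testes. Gfra1 read 0.390 and 1.08 in cadmium sperm, 0.430, 3.73 and 3.12 in control sperm 2 to 4, and 19.2 to 26.95 in testes. Sertoli markers (6 genes) summed to 0.970 to 7.27 FPKM in cadmium sperm and 0 to 2.21 in control sperm 2 to 4, and the part of either list was not tested. Of the 7.27 in cadmium sperm 2, Clu held 5.82 FPKM, with Wt1, Gata4 and Rhox5 at 0.

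The cadmium effect in sperm minus that in testes was tested as an interaction over 32814 genes. No member of 7 was called and 0 had an unadjusted p under 0.05 by edgeR, DESeq2 or limma, beside 0.0396% of genes called. For Prm1 the log2 difference was 1.76 (95% interval -1.15 to 4.68) and for Prm2 it was 0.29 (-1.53 to 2.10), both at an edgeR adjusted p of 1.00. The median of all genes tested was 0.35.

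Other genes of the histone-to-protamine transition were read from 4 lists in the same fits, with the share of all genes called the same way given beside each count. List calls were read from the main fit and not followed through the alternatives. The lists hold known mRNAs, while the shares over all genes include non-coding and predicted transcripts. In control mice, Phf7, H3f3b, Hist1h1a, Tbpl1, Papolb, Paip2, Paip2b, Cabs1 and Odf1 were at 0 in control sperm 2 to 4. Each had an edgeR adjusted p of 0.0472, that of Hils1, which lost its call without control sperm 2, 3 or 4. The median log2 fold changes over all genes tested were -1.24 in control sperm and -0.30 in cadmium sperm. Of 11 exchange factors tested in control mice, such as chromatin readers and remodellers that act before the transition proteins, 1 was called lower in sperm (17.7% of all genes) and 0 higher (4.17%), with a median log2 fold change of -0.51. This was Phf7, a histone ubiquitin ligase, at 0 in control sperm 2 to 4 and 6.29 and 3.76 FPKM in testes (edgeR adjusted p = 0.0472). In the cadmium arm (15.4% of all genes lower, 16.2% higher), 3 of 11 were lower (Rnf8, Phf7 and Brdt, the testis bromodomain protein) and 1 was higher, Chd5, a remodeller of spermatid chromatin, at 9.94 and 7.38 FPKM in sperm and 0.860 and 0.870 in testes (log2 fold change 3.54 ± 0.60, edgeR adjusted p = 9e-08).

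Of 9 other linker and testis histones tested, 2 were lower in control sperm (17.7% of all genes), H3f3b, a gene of replacement histone H3.3, and Hist1h1a, both at 0 FPKM in control sperm 2 to 4, and the list median was -2.02, or -0.50 with those 2 genes at their bound. In the cadmium arm 2 were lower (15.4% of all genes) and 2 higher (16.2%). Hist1h1t, the testis linker histone of spermatocytes, was at 0 and 1.15 FPKM in cadmium sperm and 9.20 and 6.47 in testes (log2 fold change -3.27 ± 1.35, edgeR adjusted p = 0.0494). The somatic linker histones H1fx (1.89 ± 0.56, adjusted p = 0.00398) and Hist1h1e (2.41 ± 0.69, adjusted p = 0.00305) were higher in cadmium sperm.

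Among 11 regulators of protamine and transition protein mRNAs tested, 5 were lower in control sperm (17.7% of all genes) and 0 higher, with a median of -2.81, or -1.67 with the 4 genes at 0 in sperm at their bound. Tbpl1, a TBP relative of spermatid transcription, and Papolb, the testis cytoplasmic poly(A) polymerase, were at 0 FPKM in control sperm 2 to 4 (both edgeR adjusted p = 0.0472). Paip2, a regulator of poly(A)-binding protein, was also at 0 there and at 2.02 and 2.51 FPKM in testes (edgeR adjusted p = 0.0472). Ybx3, a Y-box protein that binds stored mRNA, read 9.31, 0 and 18.2 FPKM in control sperm 2 to 4 and 25.3 and 82.4 in testes (log2 fold change -2.81 ± 0.93, edgeR adjusted p = 0.0384). In the cadmium arm Papolb and Ybx3 were lower and the transcription factors Rfx2 and Sox30 higher, 2 and 2 of 12 tested (15.4% and 16.2% of all genes).

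Of 15 other late haploid mRNAs, 3 were lower in control sperm (Meig1, Cabs1 and the fibre protein Odf1, each at 0 FPKM there) and 1 was higher, near the 17.7% and 4.17% of all genes, with a median of -2.15, or -1.46 with those 3 at their bound. Tssk6, a sperm kinase, read 21.8, 167 and 40.9 FPKM in control sperm 2 to 4 against 6.48 and 8.64 in testes (log2 fold change 2.88 ± 0.99, edgeR adjusted p = 0.0464). In the cadmium arm (15.4% of all genes lower, 16.2% higher) 4 of 19 were lower, among them Akap3 and Actl7a, and 2 were higher, Tssk6 (2.02 ± 0.57, adjusted p = 0.00257) and Spem1 (2.29 ± 0.62, adjusted p = 0.0017). In no list was a gene called in either cadmium comparison or in the interaction, where 7 to 20 members of a list were tested.

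Genes with the level pattern most like the mean of the 7 members over 10 samples, among 3452 known mRNAs, were Brd9 (Pearson r = 0.990), Boc (0.990), Slc6a9 (0.990), Gpr62 (0.989) and Numb (0.989) on log2(FPKM + 1). The 10 samples form a sperm and a testes cluster that these values mainly follow, so no p is given. Prm2 correlated at -0.40 to -0.29 with the members other than Prm3 (0.19), so likeness to the mean is not likeness to each member. Slc6a9, a glycine transporter, averaged 0.290 FPKM in control sperm 2 to 4, 18.6 in control testes, 2.19 in cadmium sperm and 17.6 in cadmium testes. The tables list non-coding and predicted transcripts beside the known mRNAs without positions, so reads divided with such transcripts at the same locus could not be checked for the members or for the listed genes.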

How the data were processed

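The study removed ribosomal RNA with RNase H, made strand-specific libraries, and filtered adaptors and low-quality reads. Its methods name SOAPaligner/SOAP2 for alignment, while the submitters' processing notes name HISAT and mm10. The tool that gave the expected counts is not given in the sources used here. The authors deposited, for each transcript above 0, an expected count, which is an estimate and was not normalized, and an FPKM scaled to transcript length and library size. A transcript not listed was taken as 0, and both values were summed by gene symbol.

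Expected counts were rounded and tested with edgeR 4.0.16 (R 4.3.3, TMM, quasi-likelihood) over all genes that reached 1 FPKM in 2 or more of the samples compared. Standard errors were worked back from the F statistic. Alternatives used limma 3.58.1 on log2(FPKM + 1) or log2(FPKM + 0.1), DESeq2 1.42.0, library totals in place of TMM, no filter, known mRNAs only, 1 model over 9 samples, control sperm 1 added, a replicate block (in 2 comparisons with control sperm 1 added), a gene at 0 set to 3 counts in ratios, and each sample left out in turn. Exact permutation tests, pooled-count intervals and promoter searches used Python 3.11.15 with scipy 1.17.1. The fits were also run on simulated data, with changes placed only in well-counted genes. The simulated spread between samples was below that of control sperm against testes and of cadmium in sperm. That run does not test genes at a few counts, such as Prm1, Tnp1 and Hils1 in control sperm. The members and lists were chosen with earlier results of these data known. All members are named; of each list, the 2 highest and 2 lowest called genes in control sperm against testes, and up to 4 called in another comparison. Positions and promoters come from RefSeq's GRCm38.p6.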

Additional observations from a re-analysis of the deposited data

Results flagged for a closer look

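Prm1 read 40.12 FPKM in control sperm 1, a sample outside the comparisons, above the 0 to 10.97 FPKM of control sperm 2 to 4. Over the 4 control sperm samples, Prm3 at 138.07 FPKM in control sperm 3 stood farther from the nearest other sample than Dixon's 95% limit for 4 samples allows. The gap was 0.922 of the range, and chance gives about 1 such value in 20 groups if values are normal. Tnp1 at 4.89 FPKM in control sperm 2, from 2 counts, was flagged too, with a gap of 1.00 of the range. The other samples were at 0, so any value above 0 would give that gap and the limit cannot judge it.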

How the results depend on the processing

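None of the alternatives called a member in the cadmium comparisons or the interaction. In control sperm against testes, 3 members and 5353 genes were called. The members called were 0 with no filter on low values, 1 with limma on log2(FPKM + 0.1), 5 with 9 samples and treatment as a term, and 0 to 2 with a sample left out. The genes called were 1344 with no filter, 3315 with DESeq2, 1214 among known mRNAs only, 10733 with 9 samples and 880 to 4338 with a sample left out. In the cadmium arm, with 3 members and 8154 genes, 1 member was called in the single model over 9 samples and 1 to 3 with a sample left out, and 4 among known mRNAs only or with limma on log2(FPKM + 1), which added Hils1. Genes called there were 5090 with DESeq2, 2290 among known mRNAs, 3522 in the single model and 563 to 4886 with a sample left out. For cadmium in testes, the 6 genes called became 0 among known mRNAs, with library totals only or with limma at either pseudocount, 88 with no filter and 4 to 29 with a sample left out. For cadmium in sperm, 17 became 11 with DESeq2, 3 among known mRNAs, 0 and 1168 with limma on log2(FPKM + 1) and log2(FPKM + 0.1), 37 in the single model and 7 to 42 with a sample left out. For the interaction, 13 became 0 with DESeq2, known mRNAs only or limma at either pseudocount, 3 with library totals only and 0 to 26 with a sample left out.

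Log2 fold changes that changed sign were all of uncalled members. In control sperm against testes, Prm2 turned to -0.054 with control sperm 1 added and ran from -0.24 to 0.69 with a sample left out, and Prm3 turned to -0.0088 and -0.040 with limma (FPKM + 1 and + 0.1), -0.013 with control sperm 1 added and -1.15 to 0.92 with a sample left out. For cadmium in testes, Prm2 turned to -0.047 with library totals only, and leaving out samples gave -0.19 to 0.35 for Prm2, -0.21 to 0.34 for Prm1 and -0.36 to 0.87 for Tnp2. For cadmium in sperm, Prm3 turned to 0.14 and 0.17 with limma and -1.12 to 1.29 with a sample left out. Tnp2 turned to -0.022 with DESeq2, -0.031 in the single model and -0.54 to 1.34 with a sample left out, and H1fnt ran from -0.20 to 0.77. In the interaction, Prm3 turned to 0.47 and 0.52 with limma, 0.23 with no filter, 0.17 with control sperm 1 added and -0.79 to 1.64 with a sample left out. Tnp2 there turned to 1.08 and 2.16 with limma, 0.022 with no filter and -0.97 to 1.46 with a sample left out, and Tnp1 ran from -0.061 to 4.56. The cause was not tested.

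The difference in the log2 ratio of Prm2 to Prm1 was 3.80 on expected counts, 4.07 with control sperm 1 added, 3.66 with a gene at 0 set to 3 counts and 3.94 to 4.95 with a sample left out. The difference in Tnp2 to Tnp1 ran from 2.24 to 3.19 with a sample left out, and its two-sided exact permutation p rose to 0.0571 when any 1 of the 4 testes samples was left out, and to the same value, with a difference of 1.75, when Tnp1 at 0 was set to 3 counts. The difference in the share of known-mRNA FPKM moved from -0.31 to -0.030 percentage points on expected counts. DESeq2 called 2 members in control mice and gave Hils1 no adjusted p. Library totals in place of TMM shifted the median of all genes by 0.11 in control mice and by -0.26 in the cadmium arm, and no member's direction in those tissue contrasts changed.

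Labels share replicate numbers across groups but do not say that a number marks the same mice. Differences between replicates 1 and 2 correlated at 0.446 across genes between control and cadmium testes. In the other pairings the correlation was -0.066 to 0.103. The numbers were not taken as pairs in the main fits, although replicates 1 and 2 of the testes groups differed partly in the same direction. For cadmium in testes, a replicate block lowered the common coefficient of variation between samples from 0.391 to 0.138. The block could be fitted in control sperm against testes and for cadmium in sperm only with control sperm 1 added, so those fits changed 2 choices at once. In control sperm against testes, adding control sperm 1 alone gave 3 members and 5577 genes, and adding it with the replicate block gave 0 members and 1566 genes. For cadmium in sperm it gave 21 genes alone and 12 with the block. With the replicate block alone, 89 genes were called for cadmium in testes and 115 for the interaction. In the cadmium arm the block called 4 members, with Prm2 higher in sperm at 1.13 (edgeR adjusted p = 0.0245). For cadmium in testes 1 member, Tnp1, had an edgeR unadjusted p under 0.05 with the block (0.0170, adjusted p = 0.928). The block with control sperm 1 added gave -0.35 for Prm2 and -2.59 for Prm3 in control sperm against testes, where adding that sample alone had already turned both, and 2.44 for Prm3 and -0.18 for Tnp2 for cadmium in sperm. The block alone turned Prm3 to 1.62 and Tnp1 to -0.33 in the interaction.

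Depth limits the low members most, since 3 counts were between 0.540 and 1.55 CPM over a group.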
